A study of Rattus norvegicus with 9 samples.

Results

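Complement is a protein cascade that tags targets for removal and calls immune cells, and in the spinal cord part of it is made locally by microglia and astrocytes. C1q, built from 3 chains, binds its target and switches on the proteases C1r and C1s, which cut C4 and C2 so that C3 is cleaved. Fragments of C3 and C5 then act on the receptors C3ar1 and C5ar1, and Serping1 (the C1 inhibitor) shuts C1r and C1s off. The transcripts described here are the 9 complement components and regulators C1qa, C1qb, C1qc, C1s, C2, C3, C3ar1, C5ar1 and Serping1, taken by gene name from a table of 34890 loci. Each of the 9 names matched 1 locus.

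The RNA came from the ipsilateral side (that of the operation) of L3-L6 cord of wild-type Sprague Dawley rats in 3 groups of 3 samples. JA rats had a sham operation and were given saline by mouth. SNI rats had spared nerve injury, in which all of the sciatic nerve's large branches but the sural are tied and cut, and received saline. PLM rats had the same injury and were given the middle dose of paeoniflorin (20.65 mg/ml) and liquiritin (3.98 mg/ml in the label of replicate 1, with 3.99 and 3.100 in those of replicates 2 and 3). The methods describe a single dose for the whole group, so these labels are not read as different doses and may be an error of entry. No group of uninjured rats given the drugs was analysed here. Replicates are called biological in the labels, which do not say whether a sample came from 1 rat.

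Levels are given in TPM, a unit that corrects for gene length and sums to the same total in every library. TPM keeps no read depth, so the counting error of a single value is unknown. Pairs of groups were tested with limma on log2(TPM + 1), leaving out loci that averaged under 1 TPM in those samples, and a gene was called at an adjusted p (Benjamini-Hochberg over all loci tested) under 0.05. The log2(TPM + 1) scale understates changes of low transcripts such as the receptors. The middle of the distribution was itself displaced between groups: the median log2 fold change over all loci was -0.21 in PLM versus SNI, 0.12 in SNI versus JA and -0.10 in PLM versus JA. Each comparison is therefore given as deposited and after each sample was centred on its own median.

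Hoxc10, a gene of the lumbar cord, stood between 31.0 and 46.9 TPM in the 9 samples, and 17 microglial markers summed to between 589 and 736 TPM. Markers of Schwann cells, the myelinating cells of peripheral nerve, were uneven: 4 of them (Pmp22, Prx, Ncmap and Cldn19) summed to 1890 TPM in JA replicate 3, 1089 in SNI replicate 2 and 797 in PLM replicate 3, against 69.95 to 445 in the other 6 samples. The 13 mitochondrial protein genes took 25.3% to 32.8% of TPM in JA, 23.7% to 26.1% in SNI and 31.3% to 32.8% in PLM. Beside the results of Serping1, C3 and C7, values are also given without JA replicate 3, SNI replicate 2 or PLM replicate 3.

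The members differed widely in level. Over the 9 samples C1qa averaged 153.6 TPM, C1qb 77.3 TPM and C1qc 62.7 TPM, and these C1q chains came in this order in 9 of 9 samples. C1qa was above 95.2% of the 15503 loci that averaged 1 TPM or more. C3 followed at 20.8 TPM, Serping1 at 13.8 TPM, C2 at 13.5 TPM and C1s at 8.43 TPM. Serping1 and C2 were not separated, as Serping1 was the higher of the pair in 3 of 9 samples, and C3 was above Serping1 in 8 of 9. The receptors were lowest, with C5ar1 at 1.75 TPM and C3ar1 at 0.991 TPM, in that order in 9 of 9 samples. Serping1 also had the widest spread, its highest sample being 3.97 times its lowest, while C1qb had the narrowest at 1.41 times (the plot of TPM by sample).

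**Figure D1:**
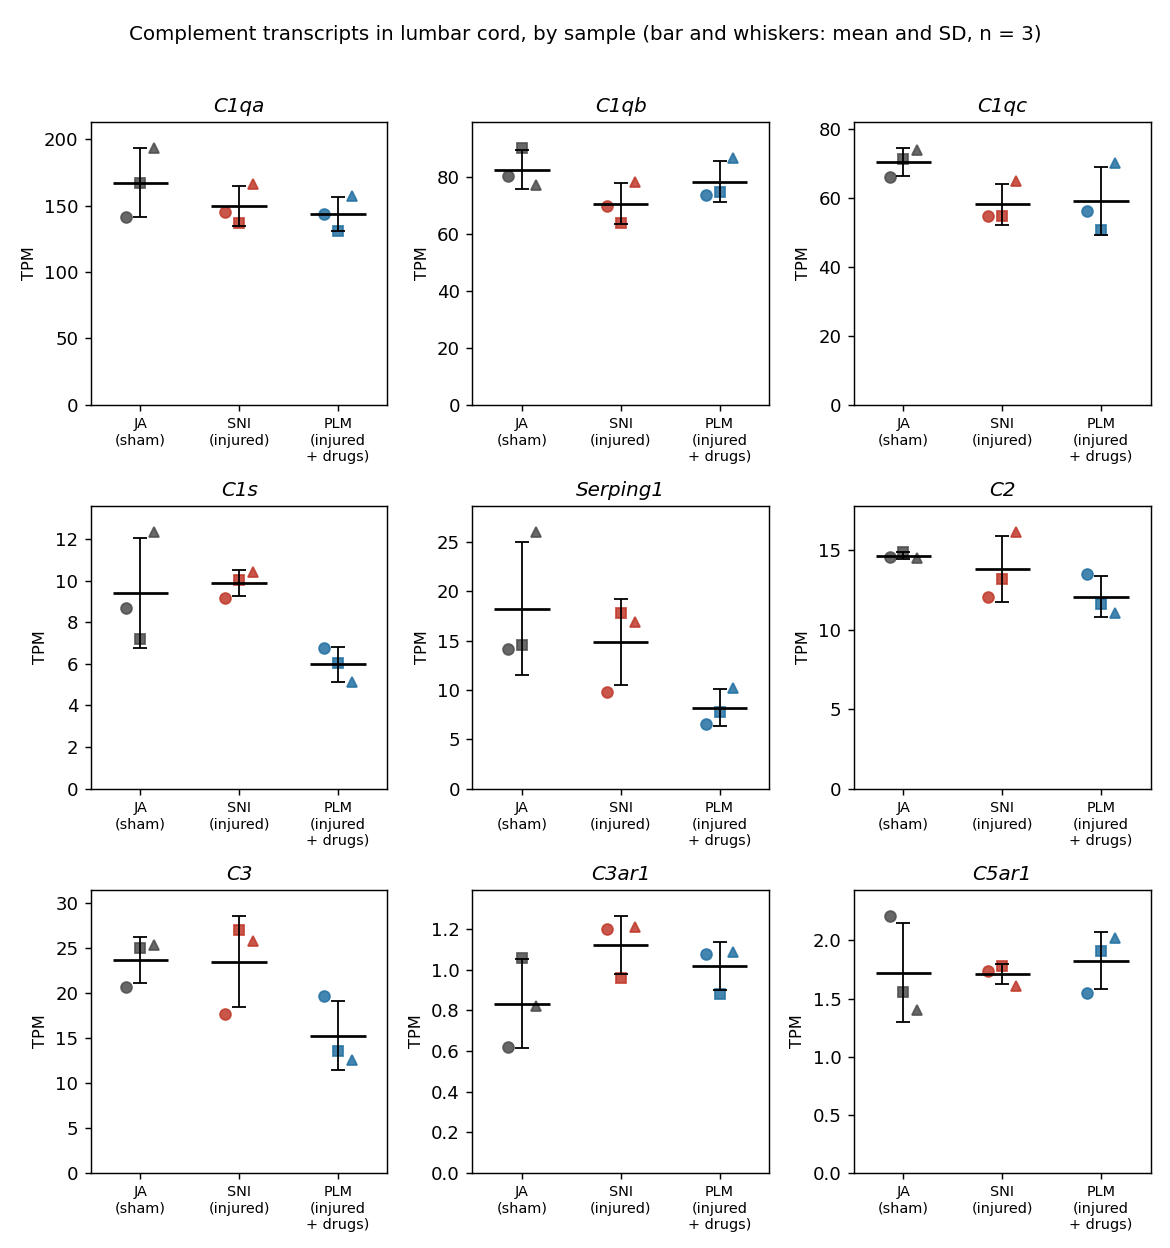
TPM of the 9 complement genes in each sample, by group (JA sham, SNI injured, PLM injured and given paeoniflorin and liquiritin; circle, square and triangle are replicates 1, 2 and 3; bar and whiskers are mean and SD, n = 3). C1s lies between 5.12 and 6.78 TPM in PLM, below the 9.19 to 10.42 TPM of SNI, while the C1q chains overlap between these groups.

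Some complement genes sit side by side in the rat genome: in the RefSeq annotation of GRCr8 no gene lies between C1qb and C1qc, C1qc and C1qa, C1r and C1s, or C2 and Cfb. The 250 bases before the start site are shown for C1qa and C1qb, whose transcripts overlapped between PLM and SNI as deposited, for C3, which starts the shared part of the cascade, and for C1r, whose transcript was, like that of its neighbour C1s, called lower in PLM than in SNI as deposited. RefSeq promoters on GRCr8 were matched for 4 of the 9 members (C1qa, C1qb, C3 and C3ar1) and for C1r. Capitals mark letters matched by GAGGAA (the core bound by PU.1, a myeloid factor), TTGCNNAA (C/EBP), TTCNNNGAA (STAT) or the interferon-stimulated response element, searched on both strands, so that GAGGAA may appear as TTCCTC. C1qa is on the minus strand at chr5:154419934-154420183, C1qb on the minus strand at chr5:154407828-154408077, C3 on the minus strand at chr9:2201340-2201589 and C1r on the plus strand at chr4:159098763-159099012.
C1qa: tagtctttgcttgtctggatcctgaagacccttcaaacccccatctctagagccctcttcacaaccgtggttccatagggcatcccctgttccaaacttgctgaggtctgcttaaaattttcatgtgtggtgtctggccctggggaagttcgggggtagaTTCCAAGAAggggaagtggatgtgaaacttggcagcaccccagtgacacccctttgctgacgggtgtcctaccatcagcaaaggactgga
C1qb: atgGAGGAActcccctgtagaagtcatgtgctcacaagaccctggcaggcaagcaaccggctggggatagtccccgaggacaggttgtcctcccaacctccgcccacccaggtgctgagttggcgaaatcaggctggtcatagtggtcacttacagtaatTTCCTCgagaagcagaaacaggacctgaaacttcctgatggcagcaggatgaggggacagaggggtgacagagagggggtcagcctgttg
C3: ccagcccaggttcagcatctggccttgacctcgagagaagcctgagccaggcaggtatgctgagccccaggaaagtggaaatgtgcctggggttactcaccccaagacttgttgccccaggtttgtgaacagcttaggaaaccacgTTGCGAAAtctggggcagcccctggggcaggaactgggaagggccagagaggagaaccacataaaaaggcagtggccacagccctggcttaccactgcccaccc
C1r: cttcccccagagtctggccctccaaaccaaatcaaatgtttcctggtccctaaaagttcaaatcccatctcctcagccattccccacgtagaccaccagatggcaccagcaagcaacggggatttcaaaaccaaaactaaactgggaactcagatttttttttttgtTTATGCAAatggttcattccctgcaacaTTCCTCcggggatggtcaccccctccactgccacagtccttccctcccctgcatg

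The first letter of the match lay 90 bases before the start in C1qa (STAT), 247 and 90 in C1qb (PU.1 core), 104 in C3 (C/EBP), and 83 (C/EBP) and 55 (PU.1 core) in C1r. None of these matches overlapped another, and the C3ar1 window held no match. Such letters are common: of 33469 promoters of this length, 23.3% held GAGGAA, 9.22% TTGCNNAA, 7.67% TTCNNNGAA and 3.41% the interferon-stimulated response element. The matches describe sequence only, since binding of these factors was not measured.

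The comparison of PLM with SNI asks which complement transcripts differ in injured rats given the drugs. C1s was called lower, C3 and Serping1 had lower means without being called, and the intervals of the C1q chains, C2 and the receptors included 0 as deposited. C1s, the protease that cuts C4 and C2, read 9.19, 10.04 and 10.42 TPM in SNI and 6.78, 6.05 and 5.12 TPM in PLM. All 3 PLM samples were below all 3 SNI samples. The log2 fold change was -0.65 (SE 0.11, 95% CI -0.91 to -0.38, n = 3 per group, limma adjusted p = 0.0227). C1s was thus 1 of 9 members called, where 13.6% of the 15474 loci tested were called lower and 13.9% in either direction, so that the members' share was near that of all loci. At an unadjusted p under 0.05, 3 of 9 members (C1s, Serping1 and C3) were lower, against 35.8% of loci.

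The C1s call did not hold under every setting. After median-centring its log2 fold change was -0.40 (95% CI -0.72 to -0.07, limma adjusted p = 0.217), and 0 of 9 members were called against 0.814% of loci. At an unadjusted p under 0.05 there were then 3 of 9 (C1s lower, C1qb and C5ar1 higher) against 16.9%. As deposited, leaving out SNI replicate 1, SNI replicate 3 or PLM replicate 2 raised the limma adjusted p of C1s to 0.0656, 0.0640 and 0.0797. The call was also lost with the replicate number as a block (0.109), all 9 samples in 1 fit (0.0629) and quantile normalization (0.228). The same held for TPM rescaled without the mitochondrial protein genes (0.0908).

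Serping1, which inactivates C1r and C1s, read 9.85, 17.80 and 16.94 TPM in SNI and 6.55, 7.77 and 10.24 TPM in PLM. The groups overlapped by 1 pair, SNI replicate 1 being just below PLM replicate 3. Its log2 fold change was -0.77 (SE 0.25, 95% CI -1.36 to -0.17, limma adjusted p = 0.0803) as deposited and -0.52 (adjusted p = 0.351) centred.

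Markers of meninges and fibroblasts moved beside Serping1. Their 9 measured genes summed to 145, 319 and 193 TPM in SNI and 102, 133 and 181 TPM in PLM. Of these genes 2 of 9 (Igf2 and Slc6a13) were called lower in PLM as deposited, against 13.6% of loci, and 0 of 9 when centred, against 0.814%. As deposited 9 of 9 had a log2 fold change below 0, where the median over all loci was -0.21. Over all samples the highest sum, 429 TPM, was in JA replicate 3, where Serping1 was also highest, and the next was in SNI replicate 2 (the plot of Serping1 against marker sums). Without SNI replicate 2 the log2 fold change of Serping1 was -0.62 and without PLM replicate 3 it was -0.92. The part of these markers in the Serping1 difference was not tested. In cord tissue of mixed cells, fewer cells of a type and less RNA per cell cannot be told apart.

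**Figure D2:**
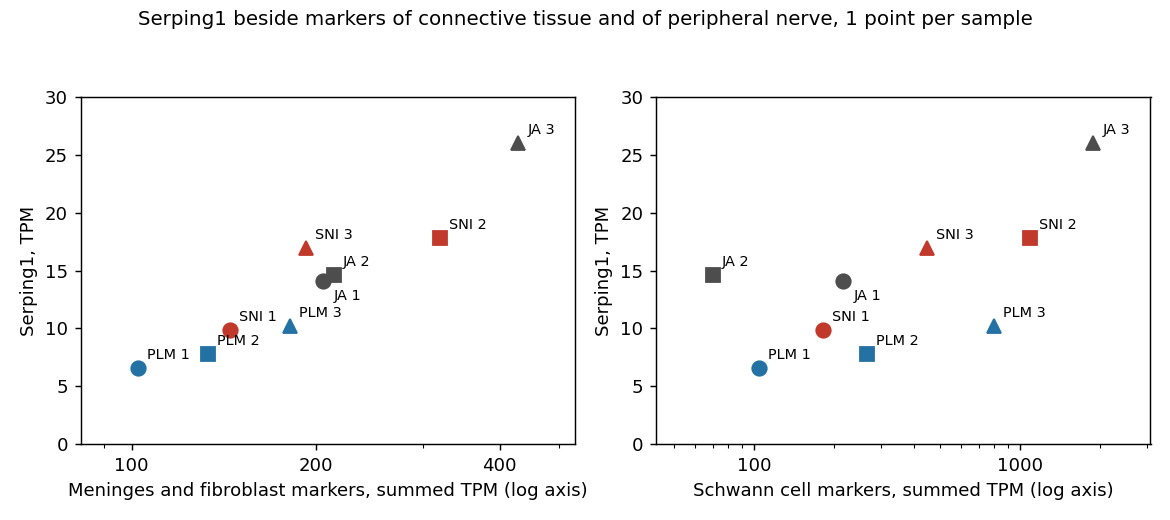
Serping1 TPM against summed TPM of meninges and fibroblast markers (left) and of the 4 Schwann cell markers (right), both on log axes, with 1 point per sample (JA sham, SNI injured, PLM injured and drug-treated). JA replicate 3 is highest on each axis, with Serping1 at 26.0 TPM, and PLM replicate 1 has the lowest Serping1 at 6.55 TPM.

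C3, the protein on which the activation routes meet, read 17.68, 27.02 and 25.80 TPM in SNI and 19.71, 13.50 and 12.60 TPM in PLM. SNI replicate 1 was lower than PLM replicate 1, so the groups overlapped. The log2 fold change was -0.59 (SE 0.22, 95% CI -1.11 to -0.07, limma adjusted p = 0.102) as deposited and -0.35 (adjusted p = 0.527) centred. Without SNI replicate 2 it was -0.49 and without PLM replicate 3 it was -0.48. C2, the substrate of C1s, read 12.10, 13.22 and 16.16 TPM in SNI and 13.55, 11.61 and 11.08 TPM in PLM, with a log2 fold change of -0.18 that became 0.07 when centred (adjusted p = 0.335 and 0.848). Without 1 sample the value of C2 ran from -0.26 without SNI replicate 1 to -0.066 without SNI replicate 3.

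The C1q chains, made in the nervous system mainly by microglia, were at similar TPM in both injured groups. C1qa read 145.5, 137.1 and 166.6 TPM in SNI and 143.5, 130.9 and 157.0 TPM in PLM, with a log2 fold change of -0.06 (95% CI -0.29 to 0.18, limma adjusted p = 0.692). C1qc read 54.7, 54.9 and 65.1 TPM in SNI and 56.4, 50.9 and 70.2 TPM in PLM (log2 fold change 0.01, 95% CI -0.31 to 0.33, adjusted p = 0.946). Differences within these intervals could not be resolved with 3 samples a group.

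C1qb read 69.9, 64.0 and 78.3 TPM in SNI and 73.7, 74.9 and 86.9 TPM in PLM. Its log2 fold change was 0.15 (95% CI -0.09 to 0.39, limma adjusted p = 0.307) as deposited and 0.40 (95% CI 0.16 to 0.63, unadjusted p = 0.00552, adjusted p = 0.134) when centred. As deposited it was 0.074 without PLM replicate 3 and 0.081 without SNI replicate 2, and at most 0.22 without any other single sample. On the centred scale all 3 PLM samples were above all 3 SNI samples. The sign of C1qa turned with the scale, from -0.06 to 0.19. Of the 17 microglial markers, 3 (Tmem119, Sall1 and Olfml3) were called lower as deposited, against 13.6% of loci, and 0 when centred, against 0.814%. The list's median log2 fold change was 0.00 as deposited and 0.25 when centred, where the medians over all loci were -0.21 and 0.04.

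C5ar1, the receptor for C5a on myeloid cells, read 1.74, 1.78 and 1.61 TPM in SNI and 1.55, 1.91 and 2.02 TPM in PLM. The log2 fold change was 0.06 (95% CI -0.26 to 0.38, limma adjusted p = 0.767) and, centred, 0.30 (unadjusted p = 0.0361, adjusted p = 0.257). C3ar1, the receptor for C3a, read 1.20, 0.96 and 1.21 TPM in SNI and 1.08, 0.88 and 1.09 TPM in PLM, with a log2 fold change of -0.07 (95% CI -0.44 to 0.30, adjusted p = 0.744) as deposited and 0.17 when centred. Without 1 sample C5ar1 ran from 0.0080 to 0.13 and C3ar1 from -0.13 to -0.024. Both are so low that a change in them is poorly resolved on this scale. Centring also shifts all loci of a sample equally, whatever their level. C8b, at 0 TPM in every sample, came to between -0.16 and -0.10 in SNI and between 0.07 and 0.19 in PLM when centred. Centred values of these receptors include that shift.

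The median log2 fold change of the 9 members was -0.07 as deposited, beside -0.21 over all loci, and 0.17 centred, beside 0.04. With an absolute log2 fold change above 1 and an unadjusted p under 0.05, 0 of 9 members were called, against 1.65% of loci. SNI and PLM did not overlap for 1 of 9 members as deposited (C1s), against 43.5% of loci in all and 41.9% with PLM below. Centred, 1 of 9 had PLM below (C1s), against 9.73% of loci, and 2 of 9 had PLM above (C1qb and C5ar1), against 14.1%. For C5ar1, a low transcript, this includes the shift that centring gives even to a locus without reads. The plot of log2 fold changes sets both scales side by side.

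**Figure D3:**
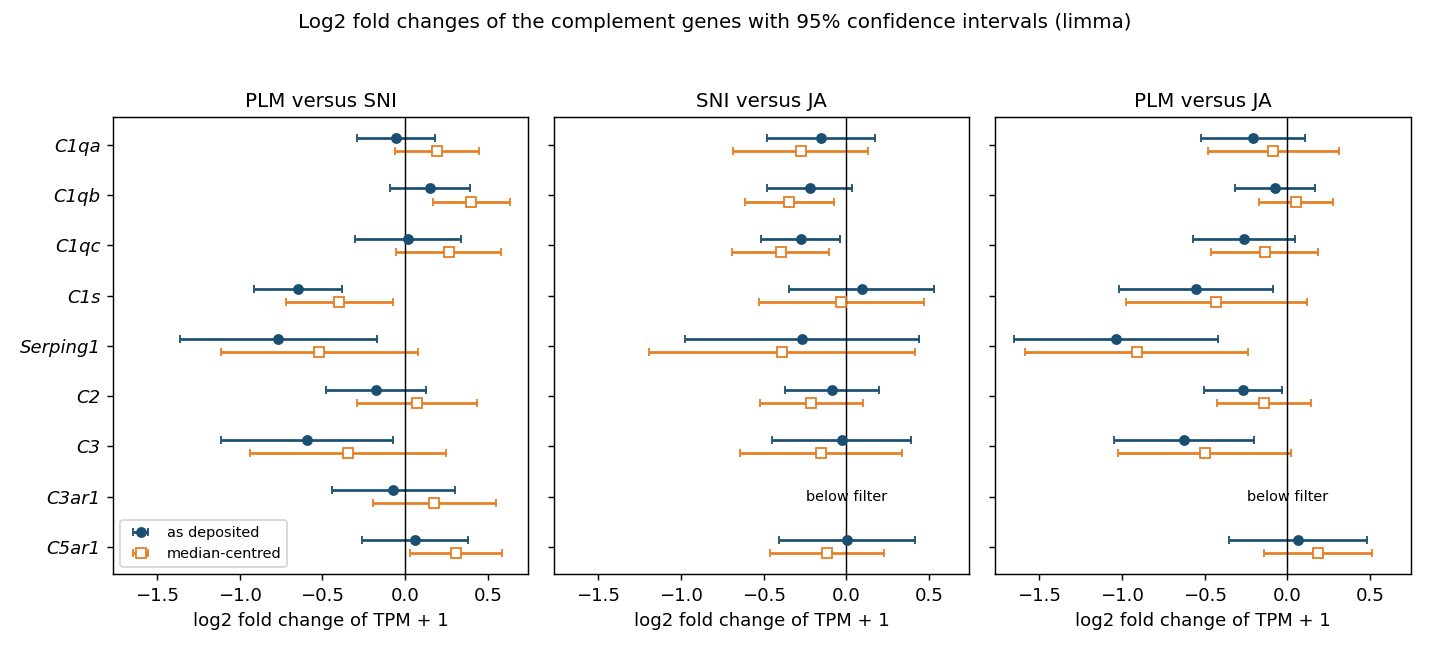
Log2 fold changes of TPM + 1 with 95% confidence intervals (limma, n = 3 per group) for the 9 complement genes in each comparison, as deposited (filled circles) and median-centred (open squares). In PLM versus SNI the interval of C1s ends below 0 on both scales, and that of C1qb lies above 0 on the centred scale alone.

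Of the wider pathway, 47 complement names were listed, 42 of them were found at 43 loci, and 21 loci passed the filter in PLM versus SNI. As deposited 4 of 21 were called lower and 0 higher, where 13.6% of loci were called lower, and 0 of 21 were called when centred, against 0.814%, with 5 of 21 at an unadjusted p under 0.05, against 16.9%. The list's median log2 fold change was -0.20, beside -0.21 over all loci. The genes called were Clu, C1r, C5 and Cd59.

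C1r, the protease that activates C1s, read 9.68, 13.25 and 10.71 TPM in SNI and 5.43, 5.93 and 6.94 TPM in PLM. All PLM samples were below all SNI samples, as for 5 of the 21 other complement loci and 41.9% of all loci as deposited. The log2 fold change was -0.78 (SE 0.14, 95% CI -1.10 to -0.45, limma adjusted p = 0.0242) as deposited and -0.53 (adjusted p = 0.134) centred. Leaving out SNI replicate 1 or 3, or PLM replicate 1 or 2, raised its adjusted p to between 0.0560 and 0.0887, and the call was also lost with the replicate number as a block (0.0841), quantile normalization (0.133) and TPM rescaled without the mitochondrial protein genes (0.0903).

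Clu (clusterin), which blocks assembly of the terminal complex and is abundant in astrocytes, read 841, 732 and 780 TPM in SNI and 469, 454 and 410 TPM in PLM. Its log2 fold change was -0.82 (SE 0.08, limma adjusted p = 0.00541), and it remained called when each of the 6 samples in turn was left out (adjusted p 0.0200 to 0.0337) but not when centred (-0.57, adjusted p = 0.0678) or when all 9 samples were fitted together (adjusted p = 0.0624). C5, the source of C5a, read 24.8, 32.7 and 32.4 TPM in SNI and 13.9, 17.8 and 21.2 TPM in PLM (log2 fold change -0.74, adjusted p = 0.0416). Its call was lost whichever of the 6 samples was left out (adjusted p 0.0504 to 0.113), when centred (-0.49, adjusted p = 0.209), and with the replicate block (0.0525), all 9 samples in 1 fit (0.0689), no filter (0.0661), no variance trend (0.0553), quantile normalization (0.226) or rescaling (0.150). Cd59, which stops the terminal complex on the host's own cells, read 258, 234 and 259 TPM in SNI and 184, 192 and 190 TPM in PLM (log2 fold change -0.40, adjusted p = 0.0167; centred -0.16, adjusted p = 0.285). The Cd59 call was lost without SNI replicate 1 or 3 or PLM replicate 1 or 2 (adjusted p 0.0521 to 0.0715), with all 9 samples in 1 fit (0.121), with the replicate number as a block (0.108), with quantile normalization (0.0816) and with rescaling (0.0689).

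Astrocyte markers were also lower in PLM than in SNI. Of 15 markers, 14 were called lower in PLM as deposited and 10 when centred, and their sum ran from 8095 to 9368 TPM in SNI and from 4393 to 5088 TPM in PLM. Sums of 3 other lists did not overlap either. The 5 blood loci summed to between 4118 and 7265 TPM in SNI and between 7987 and 11179 TPM in PLM, with 5 of 5 above 0 in log2 fold change, 0 called by limma and 3 at an unadjusted p under 0.05. The 12 oligodendrocyte markers ran from 46853 to 49135 TPM in SNI and from 50589 to 51595 TPM in PLM, with 4 of 12 above 0 as deposited and 12 of 12 when centred, 0 called on either scale, and 3 and 6 at an unadjusted p under 0.05. The 5 nerve injury genes ran from 157.7 to 159.3 TPM in SNI and from 133.2 to 147.6 TPM in PLM, with 1 of 4 tested (Csf1) called lower as deposited and 0 when centred. Over all loci 13.6% were called lower as deposited, and 0.814% were called in either direction when centred. At an unadjusted p under 0.05, 35.8% were lower as deposited and 16.9% passed in either direction when centred. The part of these 4 lists in the values of Clu, C1r, C1s, C3, C5, Cd59 and Serping1 was not tested.

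The remaining regulators and receptors were not called in PLM versus SNI with all 6 samples. Log2 fold changes as deposited were -0.25 for Cd55, which restrains the C3 convertases, and -0.18 for the related Cr1l (limma adjusted p = 0.219 and 0.170). On the alternative pathway they were -0.25 for Cfb, -0.02 for Cfd and 0.00 for Cfp (adjusted p = 0.195, 0.935 and 0.994). Itgam and Itgb2, the chains of complement receptor 3 on microglia, gave 0.10 and -0.20 (adjusted p = 0.496 and 0.243). Centred, Itgam stood at 0.35 (adjusted p = 0.170) with PLM above SNI without overlap, as for 2 of 21 other complement loci and 14.1% of all loci. Without 1 sample Itgam ran from 0.035 (SNI replicate 2) to 0.16 (SNI replicate 1), Itgb2 from -0.30 (SNI replicate 3) to -0.098 (SNI replicate 1), Cfb from -0.35 (PLM replicate 3) to -0.15 (PLM replicate 2), Cfd from -0.15 (SNI replicate 1) to 0.15 (SNI replicate 2) and Cfp from -0.13 (SNI replicate 3) to 0.088 (SNI replicate 1). C4a read 20.79, 37.39 and 35.20 TPM in SNI and 25.15, 23.95 and 26.21 TPM in PLM and gave -0.26 (adjusted p = 0.398). SNI replicate 1 decided that value: without it C4a was called lower at -0.52 (limma adjusted p = 0.0456), and without SNI replicate 2 or 3 it stood at -0.11 and -0.15. C4a and C4b are near copies between which reads can be split. Cfi, Csmd1 and C4b were below the filter, and Vsig4, Mbl1, C8b and Cpn2 were listed at 0 in all 9 samples.

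**Figure D4:**
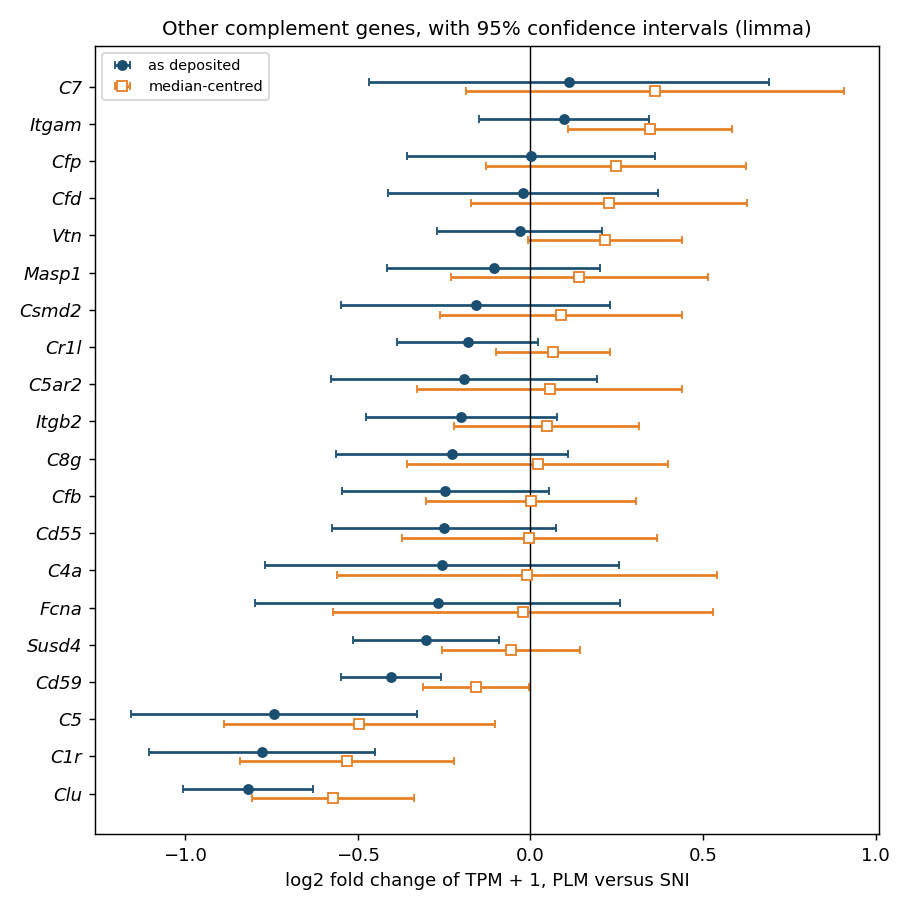
Log2 fold changes of TPM + 1 in PLM versus SNI with 95% confidence intervals (limma, n = 3 per group) for other complement genes tested, as deposited (filled circles) and median-centred (open squares). Clu, C1r and C5 lie furthest below 0, at -0.82, -0.78 and -0.74 as deposited, and centring moves every gene shown to the right.

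Ratios within a sample do not depend on how its total was scaled, and they were computed after the values had been seen. The summed C1q chains came to 320.5 TPM ± 29.2 (SD, n = 3) for the JA samples, 278.7 ± 27.98 for SNI and 281.5 ± 29.5 for PLM. Relative to that sum, C1s was at 3.40%, 3.92% and 3.36% in SNI and 2.48%, 2.36% and 1.63% in PLM, without overlap, as were 26.5% of 15500 loci with PLM below SNI on this measure. The JA samples, at 3.02%, 2.20% and 3.58%, overlapped both. C1r was at 4.07% ± 0.96 in SNI, 3.79% ± 0.52 in JA and 2.17% ± 0.17 in PLM, where the PLM samples were below all others. Serping1 was at 5.35% ± 1.66 in SNI, 5.63% ± 1.68 in JA and 2.89% ± 0.45 in PLM, again with all 3 PLM samples below all others, which held for 1.65% of loci.

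C3 per C1q overlapped between the groups, at 7.39% ± 0.21 in JA, 8.47% ± 2.01 in SNI and 5.49% ± 1.61 in PLM, and so did C2. The balance of inhibitor to protease also overlapped: per summed C1r and C1s, Serping1 stood at 0.835 ± 0.18 for JA, 0.696 ± 0.15 for SNI and 0.678 ± 0.16 for PLM. C1s per C1r overlapped likewise, at 0.773 ± 0.16, 0.893 ± 0.12 and 1.00 ± 0.26. Among the C1q chains, C1qa per C1qb was 2.12 ± 0.03 in SNI and 1.83 ± 0.10 in PLM, without overlap, while JA ranged from 1.76 to 2.51. The share of loci that separate per C1qb was not computed, but per summed C1q it was 26.5% with PLM below SNI. C1qc per C1qb overlapped in all 3 comparisons, at 0.858 ± 0.089 for JA, 0.824 ± 0.038 for SNI and 0.751 ± 0.065 for PLM. With 3 against 3 samples an exact permutation test cannot go below p = 0.10, so these ratios are given without one.

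**Figure D5:**
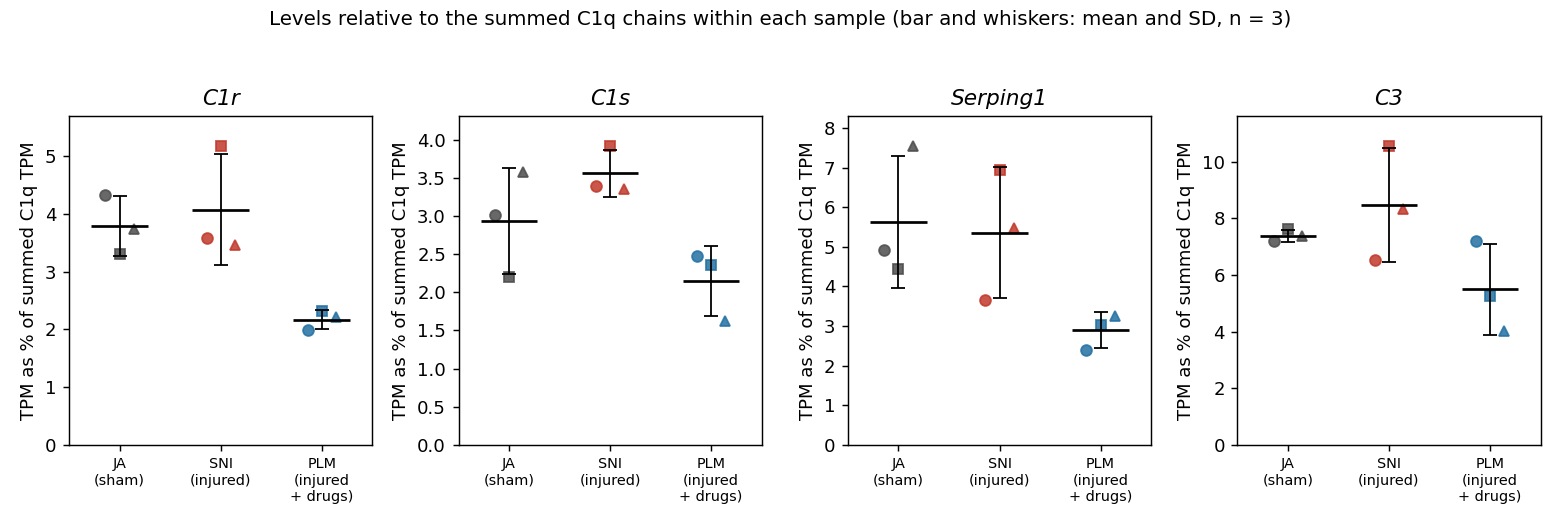
TPM of C1r, C1s, Serping1 and C3 as a percentage of the summed TPM of C1qa, C1qb and C1qc in the same sample, by group (bar and whiskers are mean and SD, n = 3; circle, square and triangle are replicates 1, 2 and 3). C1r and Serping1 are lower in every PLM sample than in any JA or SNI sample, and C3 overlaps.

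The comparison of SNI with JA asks which of them differ after the injury alone. No complement transcript was called: 0 of 8 members tested and 0 of 23 other complement loci passed, and 0% of the 15557 loci tested were called by limma, on either scale. At an unadjusted p under 0.05 there was 1 of 8 members as deposited (C1qc), against 7.1% of loci in either direction and 0.99% lower, and 2 of 8 centred (C1qb and C1qc), against 4.83% and 3.13%. With an absolute log2 fold change above 1 as well there were 0 of 8, against 0.688%. C1qc read 66.1, 71.5 and 74.0 TPM in JA, above the 54.7, 54.9 and 65.1 TPM of SNI in every sample. Its log2 fold change was -0.28 (SE 0.10, 95% CI -0.52 to -0.04, unadjusted p = 0.0301, limma adjusted p = 0.614) as deposited and -0.40 (adjusted p = 0.889) centred.

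C1qb read 80.3, 90.3 and 77.1 TPM in JA, and its log2 fold change in SNI was -0.22 (95% CI -0.48 to 0.03) as deposited and -0.34 (unadjusted p = 0.0192, limma adjusted p = 0.889) centred. C1qa read 141.6, 167.0 and 193.5 TPM in JA and gave -0.15 and -0.27. As deposited it was -0.043 without JA replicate 3, -0.092 without SNI replicate 2, -0.23 without SNI replicate 3 and -0.27 without JA replicate 1. JA and SNI did not overlap for 1 of 8 members as deposited, against 13.8% of loci in either direction and 1.66% with SNI below, and for 2 of 8 centred, against 10.9% and 6.87%. Sums of 2 marker lists did not overlap either: oligodendrocyte markers ran from 49531 to 57106 TPM in JA and from 46853 to 49135 TPM in SNI, and the nerve injury genes from 130.5 to 155.5 TPM and from 157.7 to 159.3 TPM. Of the oligodendrocyte markers 11 of 12 were below 0 in log2 fold change as deposited and 12 of 12 centred, of the nerve injury genes 4 of 4 tested were above 0 as deposited and 3 of 4 centred, and limma called 0 of either list (at an unadjusted p under 0.05, 0 of 12 and 1 of 4 as deposited, and 2 of 12 and 0 of 4 centred). Over all loci 7.1% and 4.83% passed that unadjusted p as deposited and centred. The part of these markers in the values of the C1q chains was not tested.

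Serping1 read 14.14, 14.59 and 26.02 TPM in JA, which gave a log2 fold change of -0.27 in SNI (limma adjusted p = 0.728). Without JA replicate 3, the sample with the highest Schwann cell sum, it was 0.0044, without SNI replicate 1 it was -0.014 and without SNI replicate 2 it was -0.41. C1s read 8.69, 7.22 and 12.34 TPM in JA (0.09 as deposited, -0.03 centred), and C3 read 20.71, 25.01 and 25.39 TPM (-0.03 and -0.15). The value of C3 as deposited was 0.021 without JA replicate 3 and -0.14 without SNI replicate 2. C2 read 14.61, 14.90 and 14.52 TPM and gave -0.09 and -0.21, with -0.0051 without SNI replicate 1 and -0.20 without SNI replicate 3. C5ar1 read 2.21, 1.56 and 1.40 TPM and gave 0.00 and -0.12.

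C3ar1 read 0.62, 1.06 and 0.82 TPM in JA, and its mean with the SNI samples was under the filter, so it was not tested. The median of the 8 members tested was -0.12 as deposited, beside 0.12 over all loci. When centred 8 of 8 were below 0, where the median over all loci was -0.0055, while as deposited C1s and C5ar1 were above 0. Of the other complement genes C7, a part of the terminal complex, read 13.7, 17.2 and 24.6 TPM in JA and 8.11, 9.36 and 8.96 TPM in SNI (log2 fold change -0.95, unadjusted p = 0.00236, limma adjusted p = 0.614). Without JA replicate 3, its highest sample, the log2 fold change was -0.74, and without SNI replicate 2 it was -0.995. Cfp (properdin, which stabilises the alternative convertase) gave -0.52 and Cd59 0.55, each at an adjusted p of 0.614. C7, Cfp and Cd59 were the 3 of 23 at an unadjusted p under 0.05, against 7.1% of loci, and the 3 of 23 whose groups did not overlap, against 13.8%.

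In PLM versus JA, injured and drug-treated rats against sham, 0 of 8 members and 0 of 22 other complement loci were called, as were 3 of the 15349 loci tested (0.0195%). At an unadjusted p under 0.05 there were 4 of 8 members (Serping1, C3, C1s and C2), all lower in PLM, against 11.8% of loci in either direction and 10.5% lower, and 1 of 8 centred (Serping1), against 9.98% and 4.72%. The same 4 members were those whose groups did not overlap, against 17.7% of loci in either direction and 15.7% with PLM below, while on the centred scale 1 of 8 did not, against 16.4% and 6.93%. JA samples serve in this comparison as in that with SNI, and PLM samples as in that with SNI.

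Serping1 had the largest log2 fold change among the members tested, -1.03 (SE 0.26, 95% CI -1.65 to -0.42, unadjusted p = 0.00560, limma adjusted p = 0.342) as deposited and -0.91 (adjusted p = 0.493) centred. It was the 1 member of 8 past an absolute log2 fold change of 1 with an unadjusted p under 0.05, as were 0.938% of loci in either direction and 0.658% lower, and it was not past it when centred. Without JA replicate 3 its log2 fold change was -0.76, without PLM replicate 1 it was -0.90 and without PLM replicate 3 it was -1.19. C3 gave -0.62 (SE 0.18, adjusted p = 0.344) as deposited and -0.50 centred, C1s -0.55 (SE 0.19, adjusted p = 0.386) and -0.43, and C2 -0.27 (SE 0.10, adjusted p = 0.404) and -0.14. Without JA replicate 3, C3 was at -0.57 and C1s at -0.36, and without PLM replicate 3 they were at -0.51 and -0.46.

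The C1q chains gave -0.21 for C1qa, -0.07 for C1qb and -0.26 for C1qc as deposited in PLM versus JA, and -0.09, 0.05 and -0.14 centred. Without 1 sample they ran from -0.32 (JA replicate 1) to -0.099 (JA replicate 3) for C1qa, from -0.15 (PLM replicate 3) to -0.0076 (JA replicate 2) for C1qb and from -0.39 (PLM replicate 3) to -0.16 (PLM replicate 2) for C1qc. C5ar1 gave 0.06 and 0.19, and C3ar1 was under the filter. The median of the 8 members was -0.26, beside -0.10 over all loci, and centred it was -0.14, beside 0.03. Of 22 other complement loci, 6 had PLM below JA without overlap as deposited, against 15.7% of loci, and 2 when centred, against 6.93%. C1r read 12.48, 10.84 and 12.91 TPM in JA, above all PLM samples, with a log2 fold change of -0.88 (SE 0.12, limma adjusted p = 0.141) as deposited and -0.76 (adjusted p = 0.236) centred. Marker sums of other cells did not overlap either in this comparison: meninges and fibroblast markers ran from 205 to 429 TPM in JA and from 102 to 181 TPM in PLM, and astrocyte markers from 5537 to 9149 TPM and from 4393 to 5088 TPM. Of these markers 9 of 9 and 15 of 15 had log2 fold changes below 0, and limma called 0 of either list. At an unadjusted p under 0.05 there were 7 of 9 and 11 of 15, against 10.5% of loci lower. Their part in the values of Serping1, C3, C1s and C1r was not tested.

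The genes whose pattern over the 9 samples was most like that of a member were found on the centred scale among 13945 loci, as a description. For the summed C1q chains they were LOC361346 (Pearson's r = 0.953), LOC100910990 (0.941), Slc35d2 (0.936), Spata6l (0.936) and Cab39l (0.926). For C3 they were Hist2h3c2 and LOC102548682, which carry the same values (0.979), Cfap69 (0.946), AABR07018323.1 (0.927) and Vamp5 (0.914). For Serping1 they were Anxa5 (0.983), Oaf (0.976), AABR07070307.1 (0.967), Fkbp14 (0.965) and Cemip (0.962). The samples share groups and libraries, so the r values are not evidence of a link between genes.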

How the data were processed

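RNA of 9 rat lumbar cord samples (JA, SNI and PLM, n = 3 each, grouped by the names in the labels) was analysed. The authors cleaned the reads, mapped them with HISAT2 and deposited StringTie values per locus. The submitters' processing notes name fastp 0.19.5, CASAVA, StringTie and the human build GRCh38.p13, although the identifiers are those of rat, so no coordinates of the table were used. The deposited unit is not stated and was taken as TPM, since the samples have the same total within rounding, as TPM has. Depth is unknown, and the study's count test could not be used. In its place limma 3.58.1 (R 4.3.3, variance trend, two-sided, 6 samples per comparison, no covariate) was fitted to log2(TPM + 1) over all loci that averaged 1 TPM or more. The thresholds of the study's methods (unadjusted p under 0.05, absolute log2 fold change above 1) were applied beside it. The fit was tested on simulated data.

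The members and lists were chosen with earlier results of these data known. All 9 members were named, and some results of other genes are not reported here. Of the other complement genes, a set of 15 regulators and receptors was named where tested, with up to 3 of the largest called changes in each direction, and C7, C8b, Cpn2, Mbl1, Susd4 and Colec11 were chosen after their values were seen. The alternatives were median-centring, quantile normalization, TPM rescaled without the 13 mitochondrial protein genes, a pseudocount of 0.1, no filter, 1 TPM in every sample, all 9 samples in 1 fit, the replicate number as a block, no variance trend, and leaving out each sample. Within-sample ratios, and median-centring combined with leaving out a sample, were chosen after seeing the data. No column was left unmapped, and no pair of samples was identical.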

Additional observations from a re-analysis of the deposited data

How the results depend on the processing

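The call of C1s made 1 member called in PLM versus SNI. That count was 0 with median-centring, quantile normalization, TPM rescaled without mitochondrial protein genes, all 9 samples in 1 fit, the replicate block and the study's thresholds, and 0 to 1 without 1 sample. The adjusted p of C1s (limma) ranged from 0.0166 with 1 TPM in every sample to 0.228 with quantile normalization, and centring combined with leaving out a sample raised it to at most 0.423, with a log2 fold change below 0 in each of these settings. Of the other complement genes, the count called in PLM versus SNI went from 4 to 0 with median-centring and the study's thresholds, 1 with quantile normalization, rescaling or the replicate block (Clu in each) or all 9 samples in 1 fit (C1r), and 1 to 4 without 1 sample, where C4a entered without SNI replicate 1 and Susd4 without SNI replicate 2. With no filter it stayed at 4, with Colec11 in place of C5. Over all loci the 2148 calls of PLM versus SNI became 126 with centring, 155 with quantile normalization, 283 with rescaling, 1258 with no filter, 471 with all 9 samples and 152 with the replicate block, and the lowest count without 1 sample was 275, without PLM replicate 2. In PLM versus JA the study's thresholds, which use the unadjusted p together with a fold-change limit, took the members called from 0 to 1 (Serping1, adjusted p = 0.342). The cause of these moves was not tested.

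Several members with log2 fold changes near 0 turned sign. In PLM versus SNI, C1qa went to 0.19, 0.13 and 0.091 and C3ar1 to 0.17, 0.086 and 0.0037 with centring, quantile normalization and rescaling, and C2 went to 0.071 and 0.074 with centring and quantile normalization. In SNI versus JA, C5ar1 went to -0.12, -0.083 and -0.056 with the same 3 settings and C1s to -0.030 and -0.031 with centring and quantile normalization, and in PLM versus JA C1qb went to 0.051 and 0.0071. Without 1 sample, C1qa ran from -0.12 to 0.022 and C1qc from -0.11 to 0.11 in PLM versus SNI, C1s from -0.065 to 0.28, C3 from -0.14 to 0.16, C5ar1 from -0.082 to 0.13 and Serping1 from -0.41 to 0.0044 in SNI versus JA, and C5ar1 from -0.024 to 0.19 in PLM versus JA.

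Correlations of the deviations of same-numbered samples (1, 2 and 3) were 0.03, -0.02 and -0.01 in PLM versus SNI, 0.12, -0.05 and 0.06 in SNI versus JA, and -0.02, -0.01 and 0.11 in PLM versus JA. In no comparison were all 3 over 0.1, so the numbers were not taken to pair the samples. With the replicate block the members called went from 1 to 0, and the adjusted p of C1s was 0.109. TPM gives no depth, so the precision of the receptors near 1 TPM cannot be stated.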
